A study of Mus musculus with 64 samples.

Results

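The costimulatory and checkpoint molecules described here were 9 surface proteins linked to the exchange of signals between antigen-presenting cells and T cells. They are encoded by Cd40, Cd80, Cd86, Cd83, Cd274 (PD-L1), Pdcd1lg2 (PD-L2), Icosl, Tnfsf9 (4-1BBL) and Havcr2 (TIM-3). The genes were chosen by name and not by a cutoff on their values, but with earlier results of these data known. They are 9 of the 55487 genes in the count files. All 9 were among the 14537 genes with enough reads to be tested. Murine bone marrow-derived macrophages (BMMs) of female Ahr+/+ (C57BL/6JRj) and Ahr-/- mice, 8 to 12 weeks old, were grown in M-CSF-containing L929 cell-conditioned medium until day 6, exposed for 6 h, and left unactivated or activated with heat-killed Salmonella Enteritidis (hk S.E., 10000000 per ml on 1000000 BMMs per ml) for a further 3 h or 20 h, after which poly(A) RNA was sequenced. The exposure was to 0.01% DMSO (the vehicle), 1 µM benzo[a]pyrene (BaP, an environmental pollutant and AhR ligand) or 10 µM indole-3-carbinol (I3C, a compound of cruciferous vegetables whose products bind the AhR), and the unactivated BMMs had received DMSO. This gave 16 groups of 4 libraries, 64 in all. The Ahr-/- mice came from a commercial AhR knockout line that the authors crossed back to the Ahr+/+ strain in-house, and the macrophages of both genotypes were cultured from bone marrow and checked for CD11b and F4/80 by flow cytometry.

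A naive T cell needs a costimulatory signal beside its antigen. CD80 and CD86 give that signal through CD28 and are also the ligands of the inhibitory receptor CTLA-4. ICOSL and 4-1BBL act on ICOS and 4-1BB of activated T cells. CD40 works in the other direction: it receives CD40L from the T cell and drives the macrophage through TRAF proteins and NF-kappaB. PD-L1 and PD-L2 bind PD-1 and dampen the T cell, TIM-3 is an inhibitory receptor that macrophages and dendritic cells carry themselves, and CD83 is best known as a marker of mature dendritic cells. The comparisons below ask how hk S.E. activation, its duration, the loss of the AhR and pretreatment with either ligand were each related to the mRNA of these genes.

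The genes lie on 7 chromosomes of the mouse (GRCm38, GENCODE M21 annotation). Cd274 (chr19:29367455-29388095, plus strand) and Pdcd1lg2 (chr19:29410919-29471161, plus strand) are neighbours, and Cd86 (chr16:36603869-36666081, minus strand) and Cd80 (chr16:38455561-38496335, plus strand) share chromosome 16. Cd40 is at chr2:165055627-165072948, Icosl at chr10:78069302-78083913, Havcr2 at chr11:46454935-46481255, Cd83 at chr13:43784775-43803132 and Tnfsf9 at chr17:57105325-57107757, all on the plus strand. Reads were counted over exons and by strand, so the antisense genes that overlap Cd274, Pdcd1lg2 and Tnfsf9 were counted apart from them. RefSeq promoter sequences (GRCm38.p6) were at hand for 5 of the 9 genes, Cd80, Cd274, Pdcd1lg2, Icosl and Havcr2. The windows of 300 bases, 250 before and 50 after the RefSeq start, were searched on both strands for the AhR response element I (GCGTG), the interferon-related GAS element (TTCNNNGAA), the kappaB consensus and the ISRE core. Shown are the upstream parts (bases -250 to -71 from the RefSeq start) of the 3 genes with a match, in capitals, since Cd274 and Icosl carry the differences between the genotypes described below and Pdcd1lg2 is the neighbour of Cd274.
Cd274, chr19:29367188-29367367, plus strand: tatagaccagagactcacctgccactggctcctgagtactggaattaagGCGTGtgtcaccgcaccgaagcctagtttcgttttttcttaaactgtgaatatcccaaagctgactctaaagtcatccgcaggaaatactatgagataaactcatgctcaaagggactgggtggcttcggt
Icosl, chr10:78069118-78069297, plus strand: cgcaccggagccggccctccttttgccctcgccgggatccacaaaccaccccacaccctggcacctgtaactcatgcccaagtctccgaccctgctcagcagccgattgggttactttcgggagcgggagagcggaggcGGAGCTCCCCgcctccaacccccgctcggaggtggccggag
Pdcd1lg2, chr19:29410669-29410848, plus strand: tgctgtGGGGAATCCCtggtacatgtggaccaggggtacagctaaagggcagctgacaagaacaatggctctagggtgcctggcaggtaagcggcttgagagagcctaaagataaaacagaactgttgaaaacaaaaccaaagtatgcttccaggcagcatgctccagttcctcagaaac
The capitals in Cd274 mark 1 AhR response element I at -201. Those in Icosl mark 1 kappaB match at -111, read on the minus strand, and those in Pdcd1lg2 mark a kappaB match at -244 that reads on both strands. Over 32851 mouse promoters of the same length, 32.4% held the AhR response element I, 8.46% a kappaB match, 8.3% a GAS element and 3.44% an ISRE core. These letters were absent from the windows of Cd80 and Havcr2, and a match in such a window is a description and not a binding site.

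The libraries held 12152496 to 50644601 read pairs on genes, with a median of 24499165, apart from 1 library of unactivated Ahr+/+ BMMs at 20 h (replicate 4) with 233047331. Levels are given as CPM, the reads of a gene for each 1000000 reads on genes after TMM scaling of the libraries, and genes are compared with each other only per kilobase of exon. The 8 macrophage markers summed to 18610 to 35730 CPM in every library, whereas 7 T cell markers summed to 0.529 to 9.55 CPM, 5 B cell markers to 0.362 to 6.27 CPM, 3 NK cell markers to at most 0.283 CPM, 5 fibroblast markers to 0.0736 to 8.35 CPM and 4 mast cell markers to at most 1.34 CPM. The 8 dendritic cell markers summed to 6.57 to 44.9 CPM and the 6 neutrophil markers to 7.67 to 189 CPM. Both sums rest on few genes. Itgax and Ccr7 reached group means of 33.3 and 26.0 CPM, and the other dendritic cell markers at most 0.760 CPM. S100a9, S100a8 and Camp reached 85.6, 57.6 and 4.39 CPM, and the other neutrophil markers (Ly6g, Mpo and Elane) at most 0.168 CPM. Several of the sums of all cell types moved with the groups and are given beside the results. Reads on Ahr itself could not test the genotype, because they were summed over all exons and were present in the Ahr-/- libraries (24.9 ± 2.87 CPM against 13.03 ± 1.29 CPM in Ahr+/+, activated after DMSO for 20 h, SD, n = 4). Ahrr, a gene induced by the AhR, stood at 17.2 to 20.7 CPM in BaP-treated Ahr+/+ BMMs and at 0.656 to 1.18 CPM in BaP-treated Ahr-/- BMMs at 20 h.

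Libraries stood apart in 2 ways. Within the Ahr-/- groups, replicates 1 and 2 separated from replicates 3 and 4 in 7 of 8 groups on the first component of the deviations from the group means, which held 38.7% of these deviations. Within Ahr+/+ they separated in 6 of 8 groups on a first component that held 11.5%. For Cd274 the replicates 1 and 2 were lower than 3 and 4 in 8 of 8 Ahr-/- groups, and for Icosl they were higher in 6 and for Tnfsf9 in 5. In Ahr+/+ the replicates 1 and 2 had more Cd86 than 3 and 4 in 7 of 8 groups. Over all genes tested the pairs lay apart in a median of 5 Ahr-/- and 3 Ahr+/+ groups, so that the count of Tnfsf9 is at the median. In addition, the library identifiers in the labels began with digits that fell into series whose meaning is not given: all 16 libraries of Ahr-/- BMMs at 20 h belonged to series 20, and 14 of the 16 of Ahr+/+ BMMs at 20 h to series 15. At 20 h the genotype and this series are thus nearly the same split. In the activated groups of 20 h they are exactly the same split, with all 4 libraries of each Ahr+/+ group in series 15. The time is nearly the same split too within Ahr-/-, where 1 of the 16 libraries of 3 h belonged to series 20 and 14 to series 15, so that every Ahr-/- difference between 20 h and 3 h carries it. For Ahr-/- BMMs activated after DMSO the split is exact, with all 4 libraries of 3 h in series 15. Calls between the genotypes are therefore set beside the fits with either pair of Ahr-/- replicates alone and with the series as a covariate. The pairs of Ahr+/+ replicates were not taken apart in this way. No activated group holds both series 15 and series 20, so the covariate takes their difference from unactivated groups. In activated BMMs at 20 h it therefore cannot separate the genotype from the series, whether a call was kept or lost. Values below are from edgeR's quasi-likelihood test on all 64 libraries, and a gene was called when its p-value, adjusted by Benjamini-Hochberg over all 14537 genes, was below 0.01. Nothing in the labels says whether the libraries of a group came from separate cultures; that replicate numbers stand for the 4 mice is inferred from the methods.

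Per kilobase of exon, Cd274 reached the highest group mean of the 9 genes, 615 CPM per kb, followed by Cd40 (311), Cd83 (181), Tnfsf9 (115), Cd86 (52.2), Icosl (34.4), Havcr2 (21.55) and Cd80 (10.0). Pdcd1lg2 was close to the limit of detection, with 0 to 46 reads per library and at most 0.524 CPM per kb. The group means of Cd40 spanned 480.1-fold from the lowest to the highest of the 16 groups, those of Cd274 76.05-fold, of Tnfsf9 48.9-fold and of Cd80 2.94-fold. Icosl, Tnfsf9, Cd83 and Cd40 had their highest mean in activated Ahr-/- BMMs at 3 h, Cd274, Cd86 and Pdcd1lg2 in BaP-treated, activated Ahr+/+ BMMs at 20 h, Cd80 in activated Ahr+/+ BMMs at 3 h, and Havcr2 in unactivated Ahr+/+ BMMs at 3 h. For Cd40 the order held 3 steps, the 6 activated groups of 3 h (1008 to 1060 CPM), the 6 of 20 h (157.7 to 196.7 CPM) and the 4 unactivated groups (2.21 to 3.10 CPM), and neighbours within a step overlapped. Icosl went from the 6 activated groups of 3 h (107.7 to 158.9 CPM) to the 3 activated Ahr-/- groups of 20 h (57.2 to 63.4 CPM) and only then to the 3 activated Ahr+/+ groups of 20 h (14.6 to 21.4 CPM), with no overlap of neighbouring groups at these steps. For Cd274 the 12 activated groups formed a chain of overlapping neighbours from 2229 down to 1085 CPM, far above the unactivated groups (29.3 to 56.3 CPM).

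**Figure D1:**
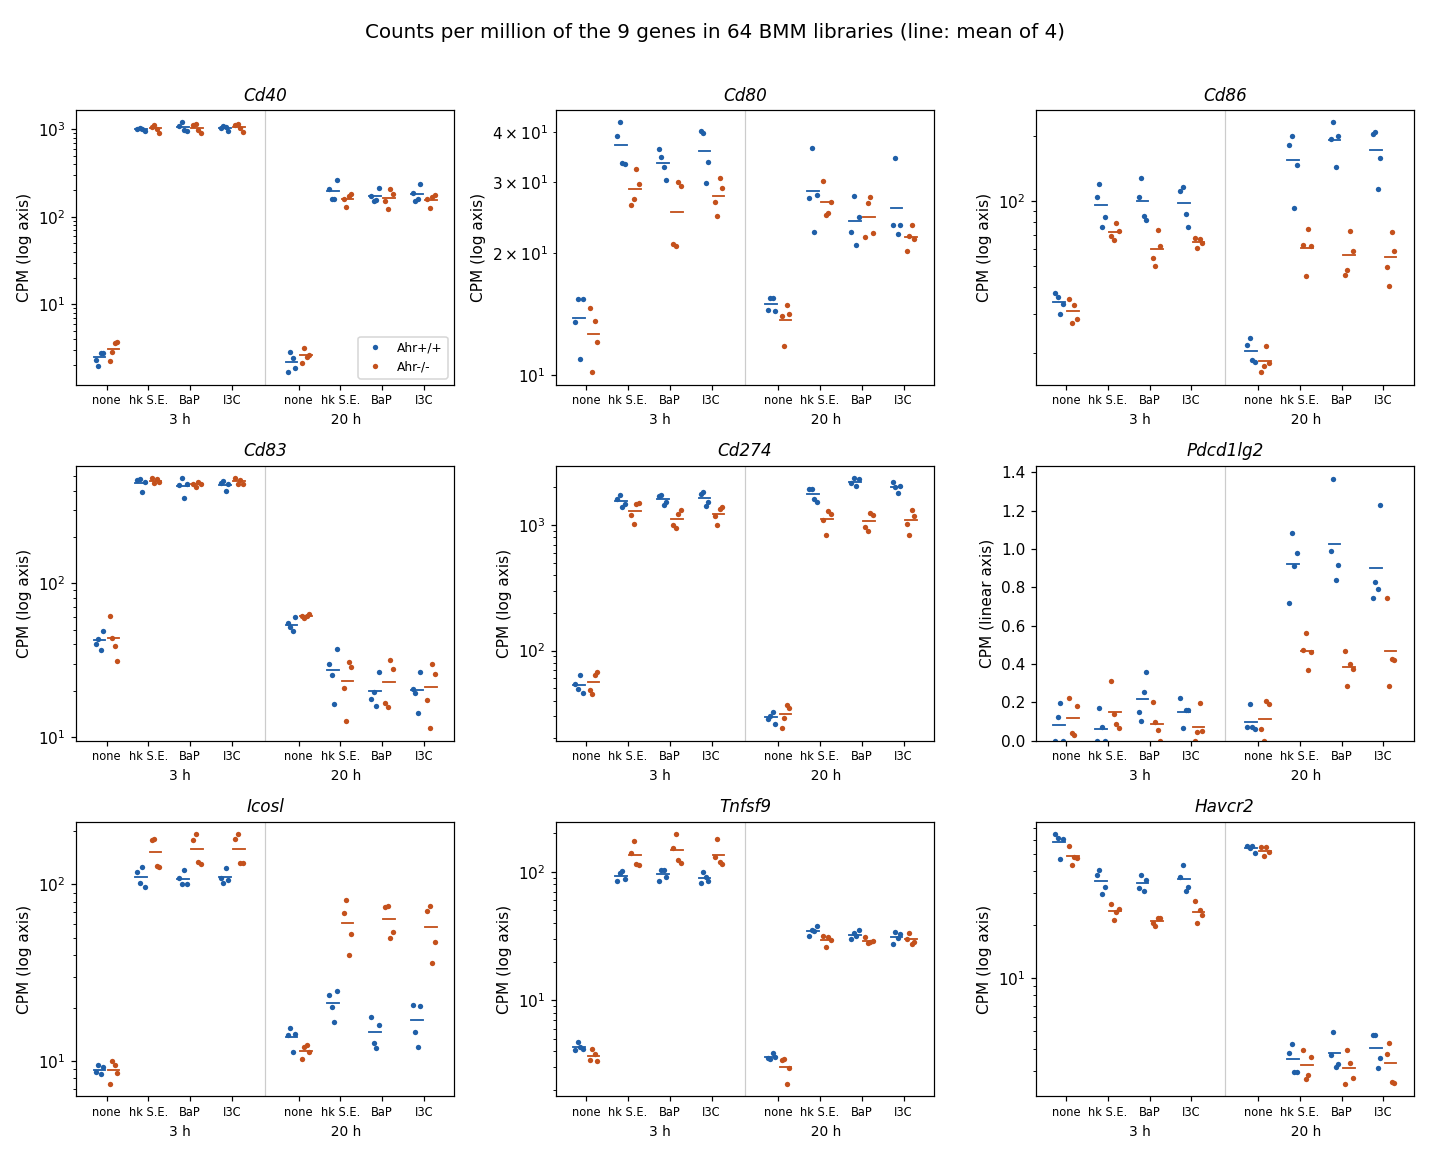
CPM of each gene (y axis; logarithmic, but linear for Pdcd1lg2) in all 64 libraries, by treatment (x axis; none, DMSO without hk S.E.; hk S.E., DMSO with hk S.E.; BaP and I3C, ligand with hk S.E.) at 3 h (left) and 20 h (right), with Ahr+/+ in blue, Ahr-/- in orange, 1 point per library and a line at the mean of 4. Cd40 rose from a mean of 2.47 to 1008 CPM at 3 h in Ahr+/+, Cd83 was back below its resting level at 20 h, and Icosl, Cd86 and Cd274 of the genotypes separated at 20 h.

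Activation with hk S.E. changed 8 of the 9 genes at 3 h and 9 of 9 at 20 h in both genotypes. Of all genes tested, 56.6% were called in Ahr+/+ at 3 h (24.2% higher and 32.3% lower) and 58.6% at 20 h (29.9% higher and 28.7% lower). In Ahr-/- BMMs 57.3% were called at 3 h (25.5% higher and 31.8% lower) and 54.3% at 20 h (28.3% higher and 26% lower). Pdcd1lg2, called at 20 h only, was over the minimum of reads in 0 of 16 unactivated and 20 of 48 activated libraries. It thus entered the test through the libraries in which it was high. The counts in the rest of this paragraph leave it out. Later counts out of 9 include it, and where it was called this is said. The 8 other genes were all called at both times in both genotypes, 7 of them higher at 3 h and 6 at 20 h, with a median log2 fold change of 3.51 in Ahr+/+ and 3.755 in Ahr-/- at 3 h and of 1.93 and 2.07 at 20 h. Over all genes the medians in Ahr+/+ and Ahr-/- came to -0.105 and -0.076 after 3 h, and to -0.00073 and 0.022 after 20 h.

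Cd40, the receiver of T cell help, had the widest range. In unactivated Ahr+/+ BMMs it stood at 2.29, 1.98, 2.81 and 2.80 CPM at 3 h, and in activated ones at 1018, 1034, 1017 and 962.7 CPM. The 4 activated libraries were alike and lay far above the unactivated ones, a rise of 8.69 on the log2 scale (SE 0.215, adjusted p = 1.08e-38, edgeR), or 413-fold. At 20 h Cd40 had fallen to 206, 159.4, 159.5 and 261.8 CPM, still 90.6-fold above the resting libraries of that time (1.67 to 2.83 CPM; log2 6.50, SE 0.196). Ahr-/- BMMs gave 8.38 at 3 h and 5.97 at 20 h.

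In Ahr+/+ BMMs the 2 ligands of CD28 parted with time. Cd86 rose from 30.1 to 37.6 CPM without activation to 104.7, 120.1, 75.6 and 84.2 CPM at 3 h in Ahr+/+ (log2 1.48, SE 0.193), and at 20 h it reached 181.7, 199.3, 92.8 and 146.7 CPM against 18.1 to 23.5 CPM at rest (log2 2.93, SE 0.202). Cd80 rose from 10.95 to 15.5 CPM to 33.3 to 42.3 CPM at 3 h (log2 1.42, SE 0.137), and at 20 h it was at 22.6 to 36.5 CPM, 1.91-fold above rest (log2 0.93, SE 0.133). No activated library overlapped with an unactivated one for either gene at either time.

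Icosl and Tnfsf9, both stimulators of activated T cells, were early. Icosl rose from 8.43 to 9.46 CPM to 117.7, 101.6, 125.2 and 97.1 CPM at 3 h in Ahr+/+, a 12.3-fold rise (log2 3.62, SE 0.212), and at 20 h it had returned to 23.7, 20.3, 16.7 and 25.0 CPM, near the resting 11.2 to 15.4 CPM (log2 0.64, SE 0.193, adjusted p = 0.00314, edgeR). That last call was lost without activated replicate 1 (0.59, adjusted p = 0.0115, edgeR), without activated replicate 4 (0.55, 0.0177) or without unactivated replicate 3 (0.56, 0.0174). In Ahr-/- BMMs the rise of Icosl at 20 h was larger, from 10.3 to 12.4 CPM to 68.8, 81.8, 40.0 and 52.2 CPM (log2 2.40, SE 0.2003). Tnfsf9 rose from 4.09 to 4.77 CPM to 85.0, 98.7, 101.9 and 88.65 CPM at 3 h in Ahr+/+ (21.4-fold) and remained 9.54-fold above rest at 20 h, at 31.6 to 37.5 CPM.

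Of the 2 ligands of PD-1, Cd274 was abundant and lasting. It rose from 46.3 to 63.4 CPM to 1608, 1738, 1397 and 1480 CPM at 3 h in Ahr+/+ BMMs (29.2-fold, log2 4.87, SE 0.172) and stood at 1958, 1948, 1616 and 1544 CPM at 20 h, 60.3-fold above rest (log2 5.92, SE 0.180). Pdcd1lg2 had 0 to 5 reads in each Ahr+/+ library of either state at 3 h, and no difference was detectable there at this depth. At 20 h the activated Ahr+/+ libraries had 16, 29, 29 and 46 reads (0.719 to 1.08 CPM) against 2, 6, 2 and 18 reads at rest (0.0607 to 0.189 CPM), the 18 reads being those of the deepest library, and this was called (log2 3.41, SE 0.478). In Ahr-/- BMMs Pdcd1lg2 had 15, 15, 10 and 25 reads with hk S.E. and 2, 0, 9 and 10 without at 20 h (log2 1.73, SE 0.484, adjusted p = 0.00162, edgeR), a call that was lost with replicates 3 and 4 alone (1.08, adjusted p = 0.0727) and with only the groups compared in the fit (1.72, adjusted p = 0.0168).

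Cd83 changed direction between the times. It rose at 3 h to 470.1, 479.3, 395.8 and 454.9 CPM from 36.9 to 49.2 CPM in Ahr+/+ (10.6-fold), and at 20 h it was below rest, at 29.6, 25.4, 16.5 and 37.15 CPM against 48.6 to 60.1 CPM (log2 -0.99, SE 0.219, adjusted p = 8.37e-05, edgeR). In Ahr-/- BMMs the 20 h value was -1.41. Havcr2 was the one member lower at both times. It fell from 47.0 to 64.9 CPM to 29.8 to 40.8 CPM at 3 h (log2 -0.73, SE 0.138) and from 50.8 to 55.9 CPM to 2.96 to 4.26 CPM at 20 h (log2 -3.97, SE 0.160), 15.6-fold lower in Ahr+/+ and 15.9-fold lower in Ahr-/-. The groups did not overlap in either comparison.

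Neutrophil markers summed to 81.8 to 182 CPM in activated against 12.5 to 28.6 CPM in unactivated Ahr+/+ BMMs at 3 h, and dendritic cell markers to 11.9 to 18.3 against 6.57 to 9.67 CPM. At 20 h the dendritic cell sums were 25.8 to 44.9 CPM in activated and 26.75 to 41.85 CPM in unactivated BMMs, but the genes behind them differed: Itgax, which macrophages also express, was at 3.10 to 6.51 CPM in activated against 25.7 to 40.6 CPM in unactivated BMMs, and Ccr7 at 18.7 to 37.8 against 0.488 to 1.11 CPM. At 20 h B cell markers summed to 0.5325 to 0.880 CPM in activated and 3.73 to 5.405 CPM in unactivated Ahr+/+ BMMs, fibroblast markers to 1.60 to 2.56 and 0.346 to 0.923 CPM, and macrophage markers to 18830 to 22840 and 25460 to 28850 CPM. Their part in these results was not tested. In bulk RNA, fewer cells of a type and less RNA per cell cannot be told apart.

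**Figure D2:**
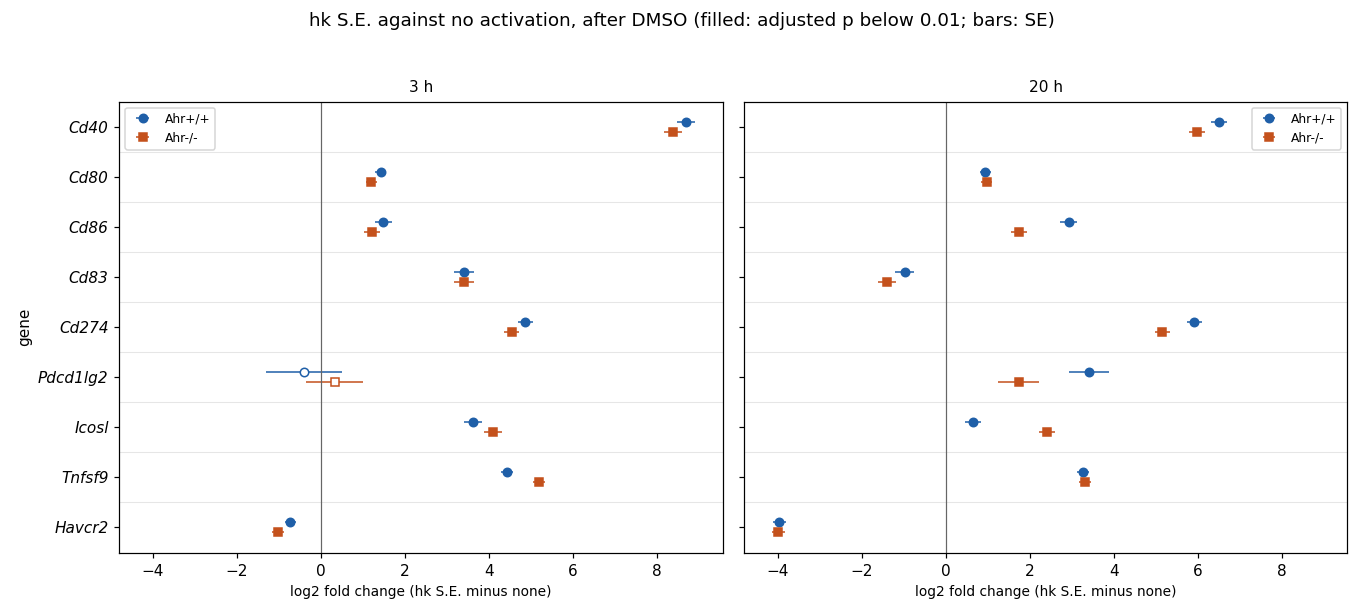
Log2 fold change of hk S.E. against no activation after DMSO (x axis) for the 9 genes (y axis) at 3 h (left) and 20 h (right), in Ahr+/+ (blue circles) and Ahr-/- (orange squares), with SE bars and filled symbols for an adjusted p below 0.01. Cd40 leads with 8.69 at 3 h, Cd83 changes sign between the times, and Havcr2 is negative throughout.

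The time courses differed between genes when the response itself was compared, 20 h minus 3 h. In Ahr+/+ the response of 8 of the 9 genes differed between the times (47.8% of all genes), 3 being larger and 5 smaller at 20 h. Pdcd1lg2, which entered the test through activated libraries, is counted among the 8 and the 3. Cd86 (1.44, SE 0.269), Cd274 (1.05, SE 0.208) and Pdcd1lg2 (3.82, SE 1.02) responded more at 20 h. Cd40 (-2.19), Cd83 (-4.39), Icosl (-2.98), Tnfsf9 (-1.17) and Havcr2 (-3.24) were lower, of which Havcr2 fell further and the others had risen less or, for Cd83, were below rest. The Pdcd1lg2 value was lost as a call without unactivated replicate 2 (3.42, adjusted p = 0.0193, edgeR) or 3 (3.28, adjusted p = 0.0148) of 3 h. Cd80 did not pass (-0.48, adjusted p = 0.0251) but did with DESeq2 (-0.55, adjusted p = 0.00966) and with the replicate number as a block (-0.51, adjusted p = 0.00188). In Ahr-/- BMMs 5 of the 9 passed (44.7% of all genes), all lower: Cd40 -2.41, Cd83 -4.82, Icosl -1.70, Tnfsf9 -1.88 and Havcr2 -2.96. Cd86 (0.53, adjusted p = 0.0898) and Cd274 (0.61, adjusted p = 0.0102) did not pass there, and both passed with the replicate block (0.53, adjusted p = 0.00192, and 0.61, adjusted p = 6.89e-06).

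Within activated BMMs, 7 of 9 genes differed between 20 h and 3 h in Ahr+/+ (59.5% of all genes) and 6 of 9 in Ahr-/- (56%). Pdcd1lg2 is counted in both, although it entered the test through the libraries in which it was high. Cd86 rose by 0.69 (SE 0.188, adjusted p = 0.00112, edgeR) in Ahr+/+, with overlapping groups, and lost the call without 3 h replicate 3 (0.51, adjusted p = 0.028), 3 h replicate 4 (0.55, 0.0198) or 20 h replicate 2 (0.55, 0.0134). In Ahr-/- it was at -0.23 (adjusted p = 0.282). Cd274 was at 0.18 in Ahr+/+ (adjusted p = 0.266) and at -0.23 in Ahr-/- (adjusted p = 0.162, and 0.00845 with the replicate block). Cd80 was at -0.38 in Ahr+/+ (adjusted p = 0.0107, edgeR) and passed with RLE factors (-0.45, 0.00275), DESeq2 (-0.45, 0.00181) and the block (-0.38, 0.000599). Pdcd1lg2 rose in both genotypes (3.77 in Ahr+/+ and 1.65 in Ahr-/-), but in Ahr-/- the call rests on few reads and was lost with the identifier series as a covariate (1.08, adjusted p = 0.288), with Ahr-/- replicates 1 and 2 alone (1.23, 0.128), with RLE factors (1.55, 0.0122), with no filter on low counts (1.67, 0.0123), with only the groups compared (1.59, 0.0117) and without any of 3 h replicates 2, 3 and 4 or 20 h replicates 1, 2 and 4 (1.44 to 1.66, adjusted p = 0.0122 to 0.0342). Cd40 (-2.36 and -2.67), Cd83 (-4.05 and -4.33), Icosl (-2.36 and -1.33), Tnfsf9 (-1.43 and -2.20) and Havcr2 (-3.35 and -2.86) were lower at 20 h in Ahr+/+ and Ahr-/-.

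Without activation 2 of the 9 genes differed over time. Of all genes, 6.07% differed between 20 h and 3 h in Ahr+/+ and 6.98% in Ahr-/-, and in both genotypes the members that passed were Cd274, at 28.6, 30.2, 32.6 and 26.0 CPM at 20 h against 54.1, 49.7, 63.4 and 46.3 CPM at 3 h in Ahr+/+ (log2 -0.87, SE 0.149, adjusted p = 3.56e-05), and Cd86 (-0.75, SE 0.192, adjusted p = 0.00539, edgeR), with -0.84 and -0.77 in Ahr-/-. In Ahr+/+ the call of Cd86 was lost without any of 3 h replicates 1, 2 and 4 or 20 h replicates 1, 3 and 4 (-0.70 to -0.78, adjusted p = 0.0112 to 0.0288), and in Ahr-/- without any of 3 h replicates 1 and 3 or 20 h replicates 1, 2 and 4 (-0.70 to -0.75, adjusted p = 0.0125 to 0.0234). With the identifier series as a covariate neither gene passed in Ahr-/- (Cd86 -0.88, adjusted p = 0.0116, and Cd274 -0.68, adjusted p = 0.0141). Icosl was higher in all 4 Ahr+/+ libraries of 20 h (0.62, adjusted p = 0.0334) and passed with the replicate block (0.61, adjusted p = 0.00213).

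The loss of the AhR was compared in unactivated BMMs first. None of the 9 genes was called there at either time, by edgeR or by DESeq2, and edgeR called 1.21% of all genes at 3 h and 0.702% at 20 h. At either time 0 of the 9 had an unadjusted p below 0.05 in the edgeR test, beside 9.99% of all genes at 3 h and 12.5% at 20 h. The estimates had intervals that still allow moderate differences, for example 0.10 for Cd274 at 20 h (95% interval -0.19 to 0.39) and -0.26 for Icosl (-0.65 to 0.12). Resting levels of Icosl at 20 h were 10.3 to 12.4 CPM in Ahr-/- and 11.2 to 15.4 CPM in Ahr+/+, so that the groups overlapped.

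In BMMs activated for 20 h, Cd86 and Cd274 were lower and Icosl higher in Ahr-/- than in Ahr+/+, after DMSO and after either ligand. After DMSO these 3 of the 9 genes were called (12.5% of all genes), after BaP 4 (23.3%) and after I3C 3 (15.6%). The 4 after BaP include Pdcd1lg2, which entered the test through the libraries in which it was high. The comparisons use separate libraries, but share mice if, as inferred above, replicate numbers stand for mice.

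Icosl had 68.8, 81.8, 40.0 and 52.2 CPM in Ahr-/- after DMSO against 23.7, 20.3, 16.7 and 25.0 CPM in Ahr+/+. All 4 Ahr-/- libraries lay above all 4 Ahr+/+ libraries, 2.83-fold on average (log2 1.5, SE 0.193, adjusted p = 4.5e-08, edgeR). After BaP the Ahr-/- values were 74.2, 75.9, 50.1 and 53.5 CPM and the Ahr+/+ values 17.7, 12.7, 11.9 and 16.1 CPM (log2 2.12, SE 0.197), and after I3C the difference was 1.75 (SE 0.196). With Ahr-/- replicates 1 and 2 alone the 3 differences were 1.82, 2.38 and 2.12, and with 3 and 4 alone 1.11, 1.83 and 1.29, all of them called. With the identifier series as a covariate, which cannot be told apart from the genotype in these groups, the values were 1.51 (adjusted p = 0.000207), 2.13 (8.8e-08) and 1.76 (9.76e-06).

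Cd86 had 62.4, 45.0, 74.3 and 62.1 CPM in Ahr-/- after DMSO, below the 181.7, 199.3, 92.8 and 146.7 CPM of Ahr+/+. The nearest pair of libraries, 74.3 and 92.8 CPM, did not overlap, and the mean was 2.54-fold lower (log2 -1.35, SE 0.190, adjusted p = 3.69e-07, edgeR). After BaP the values were 45.4, 48.1, 72.6 and 58.6 CPM against 192.5, 230.3, 143.1 and 199.0 CPM (log2 -1.77, SE 0.192), and after I3C the difference was -1.63 (SE 0.192). Either pair of Ahr-/- replicates gave called values, -1.52, -2.02 and -1.91 for replicates 1 and 2 and -1.19, -1.54 and -1.39 for 3 and 4. With the series as a covariate the values were -1.51 (adjusted p = 5.11e-05), -1.93 (9.31e-08) and -1.79 (1.17e-06).

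Cd274 had 1094, 829.5, 1292 and 1235 CPM in Ahr-/- after DMSO and 1958, 1948, 1616 and 1544 CPM in Ahr+/+. The groups did not overlap, and the difference was 1.59-fold (log2 -0.67, SE 0.146, adjusted p = 0.000544, edgeR). After BaP Cd274 stood at 968.7, 900.1, 1254 and 1216 CPM against 2156, 2374, 2059 and 2327 CPM, 2.06-fold lower (log2 -1.04, SE 0.147), and after I3C it was 1.85-fold lower (log2 -0.89, SE 0.146). The Ahr-/- replicates 1 and 2 gave -0.87, -1.24 and -1.10 for DMSO, BaP and I3C, and 3 and 4 gave -0.48, -0.85 and -0.69, each called. With only the 2 groups compared in the fit the DMSO call was lost (-0.64, adjusted p = 0.0244). The series covariate took away the calls after DMSO (-0.45, adjusted p = 0.16) and I3C (-0.67, adjusted p = 0.0144) and left that after BaP (-0.82, adjusted p = 0.00154).

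Pdcd1lg2 passed after BaP only, with 15, 10, 15 and 19 reads in Ahr-/- (0.285 to 0.469 CPM) against 27, 34, 28 and 41 reads in Ahr+/+ (0.836 to 1.37 CPM), which is -1.41 on the log2 scale (SE 0.398, adjusted p = 0.00418, edgeR). It was also lower in all 4 libraries after DMSO (-0.99, adjusted p = 0.0697) and after I3C (-0.97, adjusted p = 0.0753) without passing, and the differences between these 3 values were not tested other than as ligand responses below. The call was lost without Ahr+/+ replicate 2 (-1.25, adjusted p = 0.0212), without Ahr-/- replicate 2 (-1.30, 0.0192) or 4 (-1.40, 0.0117), with Ahr-/- replicates 1 and 2 alone (-1.42, 0.0156) and with the series covariate (-1.98, 0.0448). For the other 5 genes after DMSO at 20 h the estimates ran from -0.28 (Cd40, 95% interval -0.58 to 0.01) to -0.07 (Havcr2, -0.39 to 0.25), and none was called.

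The sum of the dendritic cell markers also differed between the genotypes at 20 h of activation. It was 12.8 to 15.7 CPM in Ahr-/- and 25.8 to 44.9 CPM in Ahr+/+ after DMSO. After BaP it was 14.6 to 17.0 against 18.4 to 30.2 CPM, and after I3C 12.1 to 15.8 against 20.3 to 35.3 CPM. Of the 8 markers 4 had enough reads to be tested. Ccr7 made up most of the sum in Ahr+/+ after DMSO, with a group mean of 26.0 CPM, its highest. Flt3, Zbtb46, Xcr1, Clec9a, Cd209a and Siglech had means of at most 0.760 CPM in any group, and Cd209a was at 0 in 63 of the 64 libraries. In unactivated BMMs at 20 h the sums were 22.2 to 38.65 CPM in Ahr-/- and 26.75 to 41.85 CPM in Ahr+/+. Their part in the differences was not tested.

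**Figure D3:**
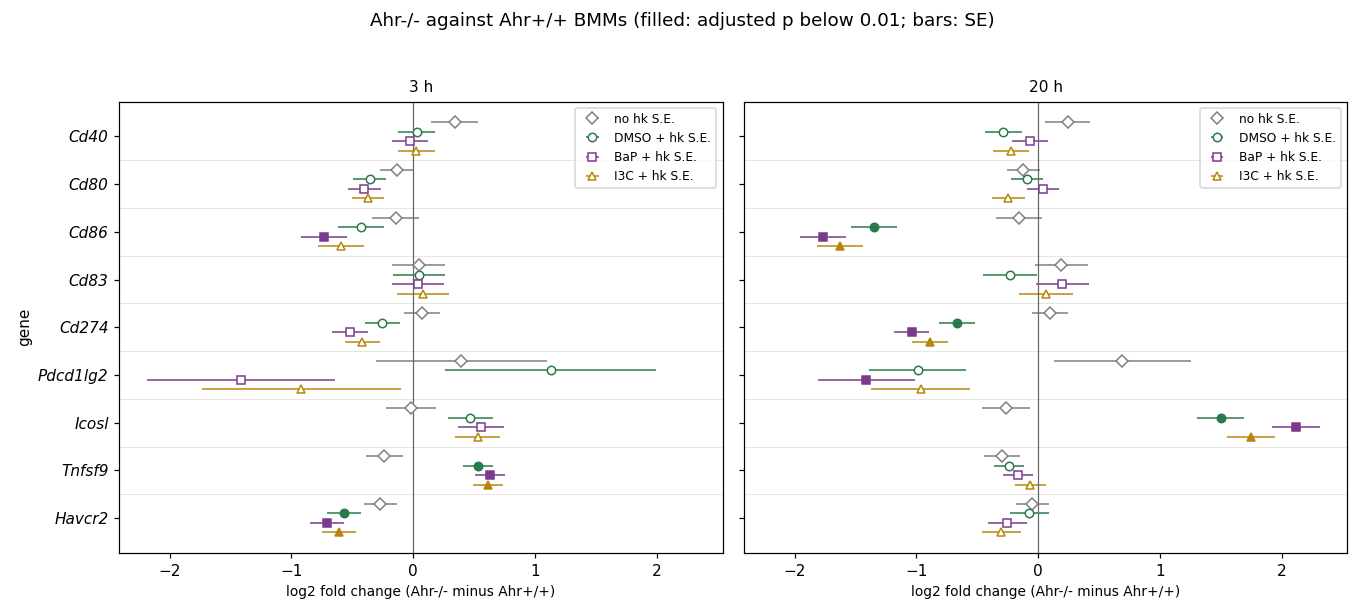
Log2 fold change of Ahr-/- against Ahr+/+ BMMs (x axis) for the 9 genes (y axis) at 3 h (left) and 20 h (right), without hk S.E. (grey diamonds) and with hk S.E. after DMSO (green circles), BaP (purple squares) or I3C (yellow triangles), with SE bars and filled symbols for an adjusted p below 0.01. At 20 h Icosl lies between 1.5 and 2.12 and Cd86 between -1.77 and -1.35 in the activated BMMs, and the grey symbols are all open.

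After 3 h of hk S.E. Tnfsf9 was higher and Havcr2 lower in Ahr-/- with each pretreatment. They were the 2 of 9 genes called after DMSO (2.83% of all genes) and after I3C (2.85%), and Cd86 made 3 after BaP (4.88%). Tnfsf9 had 140.5, 172.4, 115.4 and 113.2 CPM in Ahr-/- after DMSO and 85.0, 98.7, 101.9 and 88.65 CPM in Ahr+/+. The groups did not overlap (log2 0.53, SE 0.124, adjusted p = 0.00389, edgeR), and the values after BaP and I3C were 0.63 and 0.62. The highest 2 Ahr-/- libraries were again replicates 1 and 2. With these alone the DMSO difference was 0.74 (adjusted p = 3.89e-05), and with 3 and 4 alone it was 0.29 (adjusted p = 0.0275). With the series as a covariate the 3 values were 0.59, 0.66 and 0.61 (adjusted p = 0.0051, 0.000465 and 0.00115). The DMSO call was also lost without Ahr+/+ replicate 1 (0.49, adjusted p = 0.0204), 2 (0.56, 0.0102) or 4 (0.50, 0.0187) or Ahr-/- replicate 1 (0.51, 0.012) or 2 (0.40, 0.0575), and the calls after BaP and I3C without Ahr-/- replicate 2 (0.47, 0.0124, and 0.45, 0.0244). With only the groups compared in the fit none of the 3 Tnfsf9 values was called (adjusted p = 0.0427, 0.054 and 0.0183, edgeR).

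Havcr2 had 26.3, 21.1, 23.5 and 24.5 CPM in Ahr-/- after DMSO at 3 h and 37.9, 40.8, 29.8 and 32.65 CPM in Ahr+/+ (log2 -0.57, SE 0.1402, adjusted p = 0.00702, edgeR), without overlap. BaP gave -0.71 and I3C -0.61. For the DMSO value the call was lost with the series covariate (-0.51, adjusted p = 0.0427), with Ahr-/- replicates 1 and 2 alone (-0.58, 0.0173) and without Ahr+/+ replicate 1 (-0.53, 0.0282), 2 (-0.48, 0.0588) or 4 (-0.60, 0.0128) or Ahr-/- replicate 2 (-0.50, 0.0506), 3 (-0.56, 0.019) or 4 (-0.58, 0.0132). The I3C call was lost with Ahr-/- replicates 1 and 2 alone (-0.60, 0.0131), without Ahr+/+ replicate 1 (-0.60, 0.0128) or 2 (-0.50, 0.0389) and without Ahr-/- replicate 2 (-0.54, 0.0338) or 4 (-0.60, 0.011). With only the groups compared in the fit both were lost too (adjusted p = 0.0221 and 0.0166, edgeR). The BaP call of Havcr2 held under each of these. Cd86 after BaP (-0.73, SE 0.190, adjusted p = 0.0078) was lost with only the groups compared (-0.73, 0.0341), without the filter on low counts (-0.71, 0.0105), with the series covariate (-0.67, 0.0167), with Ahr-/- replicates 3 and 4 alone (-0.56, 0.126) and without Ahr+/+ replicate 1 (-0.70, 0.0289) or 2 (-0.58, 0.0712) or Ahr-/- replicate 1 (-0.68, 0.0367), 2 (-0.64, 0.0666) or 4 (-0.75, 0.0124).

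Icosl and Cd274 had the directions of 20 h at 3 h as well without passing after DMSO (0.47, adjusted p = 0.133, and -0.25, adjusted p = 0.349). With Ahr-/- replicates 1 and 2 alone both passed (0.70, adjusted p = 0.00124, and -0.48, adjusted p = 0.00926), and with 3 and 4 alone they were at 0.19 (adjusted p = 0.474) and -0.06 (adjusted p = 0.804). After BaP, Cd274 was at -0.52 (adjusted p = 0.014, edgeR) and passed with DESeq2 (-0.52, 0.00705) and with the replicate number as a random effect, the form the replicate block takes between genotypes (-0.53, 0.000904). With Ahr-/- replicates 1 and 2 alone it was at -0.71 (8.59e-05), and with 3 and 4 alone at -0.33 (0.05). Neutrophil markers summed to 77.4 to 81.3 CPM in Ahr-/- and 81.8 to 182 CPM in Ahr+/+ activated for 3 h after DMSO, to 68.4 to 79.6 against 129.2 to 158.8 CPM after BaP and to 71.45 to 94.1 against 128.2 to 188.7 CPM after I3C, and their part in the differences was not tested. These sums were mostly S100a8 and S100a9, and Ly6g, Mpo and Elane had means of at most 0.168 CPM in any group.

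**Figure D4:**
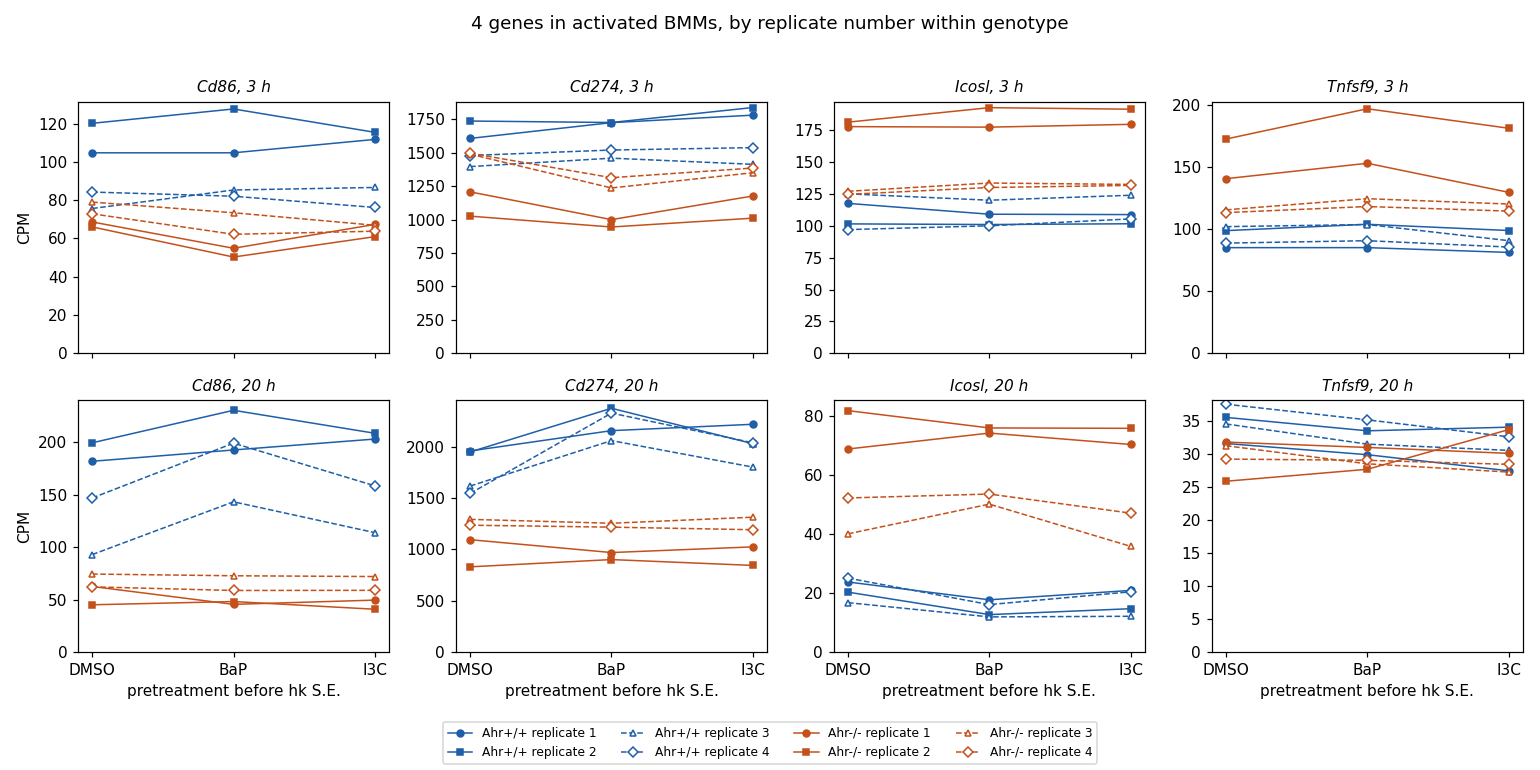
CPM (y axis, from 0) of Cd86, Cd274, Icosl and Tnfsf9 in activated BMMs at 3 h (top) and 20 h (bottom) by pretreatment (x axis), 1 line per replicate number, Ahr+/+ in blue and Ahr-/- in orange, with filled symbols and solid lines for replicates 1 and 2 and open symbols and dashed lines for 3 and 4. In Ahr-/- the replicates 1 and 2 have less Cd274 and more Icosl than 3 and 4 under each of the 3 pretreatments.

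The difference of the hk S.E. response itself between genotypes (Ahr-/- minus Ahr+/+) passed for 2 of the 9 genes at 20 h (4.41% of all genes). Cd86 responded less in Ahr-/- (-1.19, SE 0.269, adjusted p = 0.00209, edgeR) and Icosl more (1.76, SE 0.274, adjusted p = 1.15e-05). The value for Cd86 was lost as a call without activated Ahr+/+ replicate 2 (-1.05, adjusted p = 0.0101) and with Ahr-/- replicates 3 and 4 alone (-1.14, adjusted p = 0.0183), and with only the groups compared in the fit (adjusted p = 0.0212), while that of Icosl held. Cd274 did not pass (-0.76, SE 0.208, adjusted p = 0.0117) but did with the replicate block (-0.76, SE 0.115, adjusted p = 2.69e-06), with DESeq2 (-0.80, adjusted p = 0.00351), with RLE factors (-0.80, adjusted p = 0.00889) and with either pair of Ahr-/- replicates alone (-0.74 and -0.78). It also passed without 1 library, namely activated Ahr+/+ replicate 4 (-0.82, adjusted p = 0.00948), unactivated Ahr-/- replicate 1 (-0.87, 0.00403) or activated Ahr-/- replicate 3 (-0.84, 0.00627). At 3 h none of the 9 was called by edgeR or DESeq2 (0.0138% of all genes by edgeR). Of the 9, Tnfsf9 alone had an unadjusted p below 0.05 (0.77, adjusted p = 0.126), beside 5.96% of all genes below that unadjusted threshold. Tnfsf9 passed with the replicate block (0.75, SE 0.157, adjusted p = 0.00793).

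For pretreatment with BaP or I3C, 0 of the 9 genes were called in each of the 8 comparisons with DMSO, by edgeR and by DESeq2. The shares of all genes were also small. They were 0.0482% and 0.234% for BaP in Ahr+/+ at 3 h and 20 h, 0.131% and 0.509% for I3C, and in Ahr-/- 0.0275% and 0.0138% for BaP and 0.0206% and 0.206% for I3C. At an unadjusted p below 0.05 there were 3 members with BaP in Ahr+/+ at 20 h (Cd83, Cd274 and Icosl), 1 with BaP in Ahr+/+ at 3 h (Pdcd1lg2) and 1 with I3C in Ahr-/- at 20 h (Cd80). In these 3 comparisons 10.4%, 2.68% and 4.62% of all genes were below that unadjusted threshold.

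Cd274 had 2156, 2374, 2059 and 2327 CPM after BaP and 1958, 1948, 1616 and 1544 CPM after DMSO in Ahr+/+ at 20 h. All BaP libraries lay above all DMSO libraries, by 0.34 on the log2 scale (SE 0.145, 95% interval 0.05 to 0.62, adjusted p = 0.379, edgeR). With the replicate block it passed (0.34, SE 0.079, adjusted p = 0.00535). In Ahr-/- the same comparison gave -0.04 (95% interval -0.32 to 0.25), and the difference between the genotypes was 0.37 (SE 0.205, adjusted p = 0.984). Icosl went the other way in Ahr+/+ at 20 h, to 17.7, 12.7, 11.9 and 16.1 CPM after BaP (log2 -0.56, SE 0.194, adjusted p = 0.204), with overlapping groups, and was at 0.06 in Ahr-/- (difference between genotypes -0.62, SE 0.269, adjusted p = 0.938). I3C, used at 10 µM against 1 µM of BaP, gave 0.19 for Cd274 (95% interval -0.09 to 0.48) and -0.33 for Icosl (-0.71 to 0.04) in Ahr+/+ at 20 h, beside the BaP values of 0.34 and -0.56. The ligands were not compared with each other because their concentrations differed.

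The ligand responses were compared between genotypes (Ahr+/+ minus Ahr-/-) in 4 further tests, and again 0 of 9 genes were called, by edgeR and by DESeq2. The shares of all genes were 0.0138% and 0% for BaP at 3 h and 20 h and 0% and 0% for I3C. At an unadjusted p below 0.05 there was 1 member at each time for BaP (Pdcd1lg2 at 3 h and Icosl at 20 h) and 0 for I3C. The shares of all genes below that unadjusted threshold at 3 h and 20 h were 2.56% and 4.67% for BaP and 1.66% and 1.97% for I3C. The intervals of the differences for Cd86 after BaP at 20 h (-0.10 to 0.94) and for Cd40 (-0.63 to 0.20) show what sizes these libraries could not separate from 0.

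**Figure D5:**
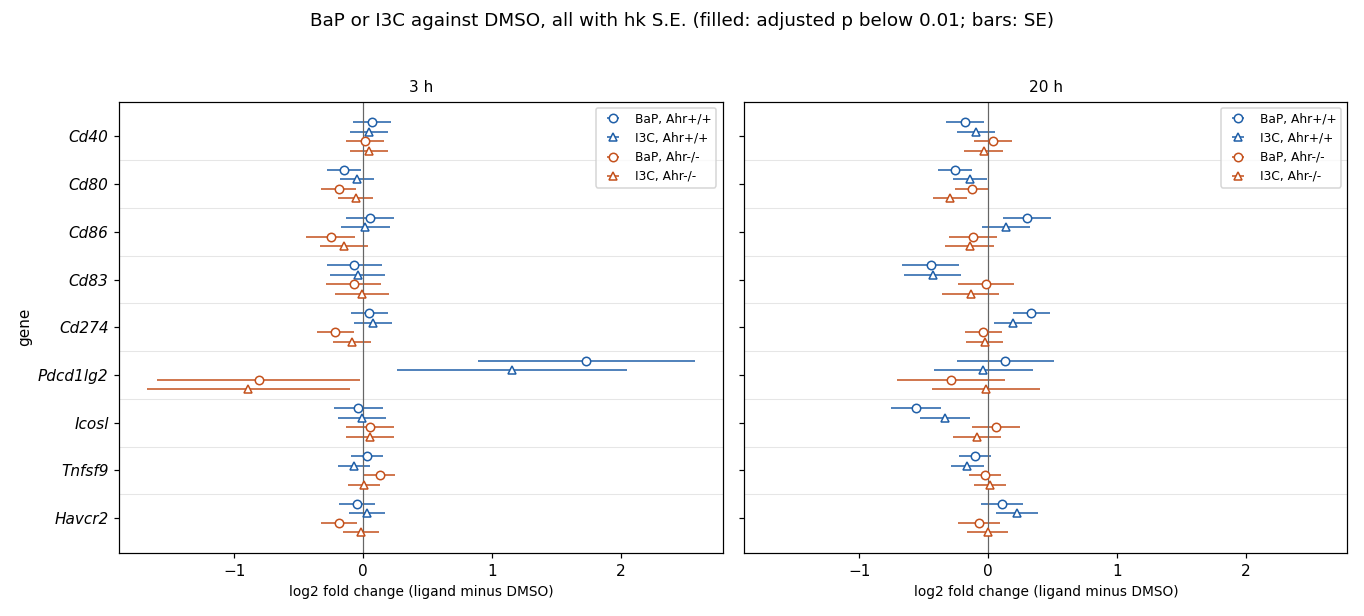
Log2 fold change of BaP (circles) or I3C (triangles) against DMSO (x axis), all with hk S.E., for the 9 genes (y axis) at 3 h (left) and 20 h (right) in Ahr+/+ (blue) and Ahr-/- (orange), with SE bars and filled symbols for an adjusted p below 0.01. Every symbol is open. In Ahr+/+ at 20 h after BaP, Icosl lies at -0.56, Cd83 at -0.45 and Cd274 at 0.34.

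Other costimulatory and checkpoint molecules of antigen-presenting cells were read from a list of 22 genes, of which 15 had enough reads. Tnfsf4 and Tnfsf15 entered the test through activated libraries, with 0 and 1 of the 16 unactivated libraries over the minimum of reads. Of the other 13, hk S.E. changed 12 in Ahr+/+ BMMs at 3 h, 7 up and 5 down, and 12 at 20 h, 6 up and 6 down, beside 56.6% and 58.6% of all genes. Their medians were 0.69 and -0.030, beside -0.105 and -0.00073 for all genes. Tnfsf15 (TL1A, a ligand of the receptor DR3 on T cells) rose by 10.15 on the log2 scale at 3 h, from 1 to 6 reads in a library to 1605 to 2149, and Tnfsf4 (OX40L) by 7.08, from 1 to 3 reads to 175 to 223. Tnfsf8 (CD30L) rose by 4.36 and Pvr (CD155, a ligand of the checkpoint TIGIT) by 2.30. At 20 h Tnfsf14 (LIGHT) fell by 5.59 and Vsir (VISTA, an inhibitory member of the B7 family) by 3.24, whereas Tnfsf15 was still up by 5.33. In Ahr-/- BMMs 12 of the 13 were called at 3 h and 11 at 20 h.
Between the genotypes 6 of the 15 differed at 20 h after DMSO, 1 higher and 5 lower in Ahr-/-, beside 12.5% of all genes. The 6 include Tnfsf4 and Tnfsf15, which entered the test through activated libraries, so this count is not over the 13 used above. Tnfsf4 (-2.17, SE 0.532), Tnfsf15 (-1.17, SE 0.230), Tnfsf8 (-1.12, SE 0.256) and Cd276 (B7-H3, -0.75, SE 0.156) had the largest differences. Tnfsf4 was at a group mean of 0.0971 CPM in Ahr-/- and 0.450 CPM in Ahr+/+ there, so its value rests on few reads. Either pair of Ahr-/- replicates alone called 5 of the 6, without Cd48 or Sirpa, and the series covariate left 2, Tnfsf8 (-1.49, adjusted p = 0.00788, edgeR) and Cd276 (-0.79, 0.00965), and not Tnfsf4 (-2.03, 0.133) or Tnfsf15 (-1.35, 0.302).

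The partners of these molecules on lymphocytes were sparse, 5 of 14 listed receptors having enough reads. Btla, Tnfrsf9 (4-1BB) and Lag3 entered the test through activated libraries, with 0, 1 and 0 of the 16 unactivated libraries over the minimum of reads, and are left out of the count. Of the other 2, Cd28 and Tnfrsf4, hk S.E. changed 1 at each time, beside 56.6% and 58.6% of all genes. Cd28, the receptor of CD80 and CD86, fell by 2.54 at 3 h and by 5.23 at 20 h, from group means of 26.2 and 36.8 CPM at rest to 4.52 and 1.04 CPM. In Ahr+/+ at 3 h Btla had 0 to 2 reads in a library without and 6 to 9 with hk S.E., Tnfrsf9 had 1 to 2 and 10 to 23, and Lag3 had 0 to 2 and 7 to 11. At 20 h Tnfrsf9 had 4 to 14 reads in Ahr-/- and 18 to 56 in Ahr+/+ with hk S.E. (-1.72, SE 0.398, adjusted p = 0.00102, edgeR), a call that either pair of Ahr-/- replicates kept and the series covariate did not (-2.01, adjusted p = 0.0545). The 7 T cell markers summed to 0.779 to 1.99 CPM without and to 4.36 to 9.50 CPM with hk S.E. at 3 h in Ahr+/+, and their part in these results was not tested.

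The 12 listed genes that act downstream of CD40 all had enough reads. In Ahr+/+ BMMs hk S.E. changed 10 at 3 h, 9 up and 1 down, and 11 at 20 h, 10 up and 1 down, beside 56.6% and 58.6% of all genes. The medians over the 12 were 1.97 and 1.21, beside -0.105 and -0.00073 for all genes. Tnfaip3 (A20, an inhibitor of NF-kappaB) rose by 5.29 at 3 h, Traf1 by 5.02, Nfkb2 by 3.18 and Birc3 by 3.05. Map3k14 (NIK, the kinase of the non-canonical NF-kappaB pathway) was the one lower gene, at -2.24. At 20 h after DMSO 3 of the 12 differed between the genotypes, all lower in Ahr-/-: Traf2 (-0.64, SE 0.083), Nfkb2 (-0.55, SE 0.126) and Birc3 (-0.22, SE 0.059), beside 12.5% of all genes. The series covariate left Traf2 (-0.45, adjusted p = 0.00574, edgeR) and not Nfkb2 (-0.30, 0.295) or Birc3 (-0.18, 0.173), and with replicates 1 and 2 alone Birc3 was lost (-0.19, 0.0592). The response to hk S.E. was smaller in Ahr-/- for 4 of them at 20 h, Nfkb2 (-0.80), Traf2 (-0.74), Traf1 (-0.52) and Birc3 (-0.34), beside 4.41% of all genes. The calls of Nfkb2 and Traf2 held with either pair of Ahr-/- replicates and with the series, that of Birc3 was lost with replicates 1 and 2 alone (-0.26, adjusted p = 0.127, edgeR), and that of Traf1 was lost under all of these (adjusted p = 0.0218 to 0.0461). Cd40 itself was not called in that comparison (-0.53, SE 0.239, adjusted p = 0.176).

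As a description, the pattern of 8 of the members over the 16 group means of log2 CPM was set beside that of all other tested genes. Cd40 ran most like Lpar1, Nfkbia and Tnf (Pearson r 0.998, 0.998 and 0.997), Tnfsf9 like Rhbdf2, Ube2z and Tnfaip3 (0.996, 0.995 and 0.995) and Havcr2 like Cd93, Rgs2 and Ywhah (0.998, 0.996 and 0.996). Cd83 was nearest to Ppfibp1, Dse and A630072M18Rik (0.996, 0.994 and 0.994), Cd86 to Mcub, Treml2 and Myof (0.991, 0.987 and 0.986) and Icosl to Snu13, Prkcd and Cish (0.991, 0.989 and 0.985). For Cd80 (Psma3, Gm13835 and Lyn, 0.974, 0.974 and 0.972) and for the rarely read Pdcd1lg2 (Gm15832, Gm10851 and Casz1, 0.975, 0.973 and 0.968) the likeness was lower. The points share their libraries, and many genes change with activation and time. Among the members, Cd40 and Tnfsf9 were closest (r 0.990 over the 16 means) and Pdcd1lg2 and Havcr2 farthest (-0.886), while the 2 CD28 ligands Cd80 and Cd86 had 0.762 and the 2 PD-1 ligands Cd274 and Pdcd1lg2 0.501.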

How the data were processed

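Per the labels and the methods, the authors prepared stranded poly(A) libraries, aligned them with HISAT2 2.1.0 to GRCm38 and counted read pairs per gene with HTSeq 0.9.1 (exons, reverse strand, GENCODE M22). The deposited values are raw counts per gene. Entries that name no gene (19.2% to 25.1% of read pairs per library) were left out. Here edgeR 4.0.16 (R 4.3.3) was used with TMM scaling, filterByExpr (min.count 10), 1 fit of 16 group means and the quasi-likelihood test. Alternatives were RLE factors, DESeq2 1.42.0, no filter, only the groups compared, an adjusted p of 0.05, each library left out, the replicate number as a block (limma 3.58.1 with a random effect between genotypes) and, chosen after seeing the data, the identifier series and either pair of Ahr-/- replicates. The fitting steps were run on simulated counts for 1 comparison, hk S.E. against none in Ahr+/+ at 3 h. The simulated libraries were independent of each other, and comparisons between genotypes were not tested there. Replicate numbers were taken as mice: at the same time, same-numbered libraries correlated in their deviations from group means with a median r of 0.407 in Ahr-/- (45 of 48 pairs over 0.1) and 0.146 in Ahr+/+ (32 of 48). Across times the medians were 0.31 in Ahr-/- (59 of 64) and 0.0778 in Ahr+/+ (22 of 64). Differently numbered libraries of the same time had medians of -0.285 in Ahr-/- (49 of 144 over 0.1) and -0.0484 in Ahr+/+ (2 of 144). Members, lists (each with its genes named by the largest called change, up to 4) and tests were chosen with earlier results of these data known. Named as alike were the 3 genes of highest r, which for Cd274 are not reported here. No 2 libraries held identical counts. Intervals are 95%, and p-values measure the spread between these libraries. Count depth limits Pdcd1lg2 most.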

Additional observations from a re-analysis of the deposited data

Results flagged for a closer look

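In 3 of the 144 groups of 4 libraries, 1 library lay far from the others by Dixon's test at its 95% critical value, where chance alone flags about 1 in 20. Cd80 in I3C-treated, activated Ahr+/+ BMMs at 20 h was at 34.6 CPM in replicate 2. Pdcd1lg2 was at 0.189 CPM in replicate 2 of unactivated Ahr+/+ BMMs at 20 h and at 1.23 CPM in replicate 4 of the I3C-treated, activated ones, values that rest on 6 and 37 reads. Of 72 tests of a difference between responses, 15 passed. Among them was that of Pdcd1lg2 in Ahr+/+, a gene that entered the test through activated libraries. The hk S.E. response at 20 h differed between Ahr-/- and Ahr+/+ for Cd86 (-1.19) and Icosl (1.76). It differed between 20 h and 3 h in Ahr+/+ for Cd40 (-2.19), Cd86 (1.44), Cd83 (-4.39), Cd274 (1.05), Pdcd1lg2 (3.82), Icosl (-2.98), Tnfsf9 (-1.17) and Havcr2 (-3.24), and in Ahr-/- for Cd40 (-2.41), Cd83 (-4.82), Icosl (-1.70), Tnfsf9 (-1.88) and Havcr2 (-2.96), all on the log2 scale.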

How the results depend on the processing

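The hk S.E. calls, except those of Icosl in Ahr+/+ and Pdcd1lg2 in Ahr-/- at 20 h, and the genotype calls of Icosl and Cd86 at 20 h after each pretreatment held under every alternative run. One of these alternatives, the series covariate, cannot separate the series from the genotype in activated BMMs at 20 h. The replicate block changed no call other than those given beside the results, and called 1 of 9 members for BaP in Ahr+/+ at 20 h and 1 for the hk S.E. response between genotypes at 3 h. For the other alternatives the cause of a change was not tested. With each library left out, 1 to 2 members differed between 20 h and 3 h at rest in Ahr+/+ and 1 to 2 in Ahr-/-, 0 to 2 between the genotypes at 3 h after DMSO, 1 to 3 after BaP, 0 to 2 after I3C, and 1 to 3 in the hk S.E. response between genotypes at 20 h. With only the groups compared in the fit, 0 were called at rest in Ahr-/- between the times, 0, 1 and 0 between genotypes at 3 h after DMSO, BaP and I3C, and 1 in the response between genotypes at 20 h, and over all genes the genotype calls at 20 h after DMSO fell from 1811 to 532. The identifier series gave 0 between the times at rest in Ahr-/-, 1 between genotypes at 3 h after DMSO, and 493 genes in place of 1811. Counts over all genes between the genotypes moved most. With only the groups compared they went from 176 to 32 and from 102 to 5 at rest at 3 h and 20 h, from 411, 709 and 414 to 58, 82 and 144 at 3 h with DMSO, BaP and I3C, and from 3385 and 2274 to 2059 and 888 at 20 h with BaP and I3C, and with the Ahr-/- replicate pairs the DMSO count at 20 h was 3011 and 3237. Replicates 3 and 4 alone took 102 to 1926 at rest at 20 h, and replicates 1 and 2 alone took 411, 709 and 414 to 1129, 3025 and 1370 at 3 h with DMSO, BaP and I3C. Leaving out 1 library took these to as few as 122, 255 and 127, so that the all-gene shares printed beside the member calls move as well. The hk S.E. response between genotypes at 20 h went from 641 to 257, and to 1505 with the replicate block, and at rest the times differed for 1015 genes in Ahr-/- against 157 with only the groups compared, 339 with the series and 2088 with the block (883 and 1941 in Ahr+/+). BaP in Ahr+/+ at 20 h went from 34 to 90 with DESeq2 and 271 with the block. At a threshold of 0.05, and also with Ahr-/- replicates 1 and 2 alone, 6 were called after BaP at 3 h. Replicates 1 and 2 alone left 1 between the times at rest in Ahr-/-, and replicates 3 and 4 alone left 1 between genotypes at 3 h after DMSO and called 1 at rest at 20 h (Tnfsf9, -0.48). Log2 estimates changed sign under some alternatives, and none of them was called with either sign. With Ahr-/- replicates 1 and 2 alone, 24 turned: Cd80 0.023 for 20 h against 3 h in Ahr-/- with hk S.E., Cd40 0.014 and Pdcd1lg2 -1.64 for 20 h against 3 h in Ahr-/- at rest, Cd40 -0.069 and Tnfsf9 0.027 for BaP against DMSO in Ahr-/- at 20 h, Havcr2 0.28 for I3C against DMSO in Ahr-/- at 20 h, Cd83 0.0055, Tnfsf9 -0.00028, Havcr2 0.0075 for I3C against DMSO in Ahr-/- at 3 h, Havcr2 -0.058 for the I3C response between genotypes at 20 h, Cd40 -0.0042 for the I3C response between genotypes at 3 h, Cd83 -0.29 for the genotypes after BaP at 20 h, Cd40 0.11 for the genotypes after BaP at 3 h, Cd83 -0.48, Tnfsf9 0.047, Havcr2 0.020 for the genotypes after I3C at 20 h, Cd274 -0.13 and Pdcd1lg2 -0.95 for the genotypes at rest at 20 h, Cd274 -0.19 for the genotypes at rest at 3 h, Pdcd1lg2 0.11, Tnfsf9 -0.20, Havcr2 0.017 for the hk S.E. response between genotypes at 20 h, Cd40 0.064 and Cd83 -0.26 for the hk S.E. response between genotypes at 3 h. With Ahr-/- replicates 3 and 4 alone, 15 turned: Cd83 0.0017 for BaP against DMSO in Ahr-/- at 20 h, Cd40 -0.015 for BaP against DMSO in Ahr-/- at 3 h, Cd80 -0.082 and Cd83 -0.027 for the BaP response between genotypes at 3 h, Tnfsf9 -0.12 for I3C against DMSO in Ahr-/- at 20 h, Pdcd1lg2 0.64 for I3C against DMSO in Ahr-/- at 3 h, Cd40 -0.0097 for the I3C response between genotypes at 3 h, Cd40 0.16 for the genotypes after BaP at 20 h, Cd40 -0.067 for the genotypes after I3C at 3 h, Cd83 0.12 for the genotypes after DMSO and hk S.E. at 20 h, Cd40 -0.077 for the genotypes after DMSO and hk S.E. at 3 h, Cd83 -0.27 and Icosl 0.017 for the genotypes at rest at 3 h, Pdcd1lg2 -0.24 for hk S.E. in Ahr-/- at 3 h, Cd80 -0.090 for the hk S.E. response between genotypes at 20 h. With the identifier series as a covariate, 15 turned: Cd80 -0.034, Pdcd1lg2 -0.12, Havcr2 -0.0054 for 20 h against 3 h in Ahr-/- at rest, Tnfsf9 -0.032 for I3C against DMSO in Ahr-/- at 3 h, Icosl 0.011 for I3C against DMSO in Ahr+/+ at 3 h, Cd40 0.26, Cd80 -0.18, Cd83 -0.13 for the genotypes after BaP at 20 h, Cd40 0.11 and Cd83 -0.27 for the genotypes after I3C at 20 h, Cd40 0.046 for the genotypes after DMSO and hk S.E. at 20 h, Cd83 -0.060 for the genotypes at rest at 20 h, Pdcd1lg2 0.20 for hk S.E. in Ahr+/+ at 3 h, Cd80 -0.053 for the hk S.E. response between genotypes at 20 h, Cd83 -0.033 for the hk S.E. response between genotypes at 3 h. With only the groups compared in the fit, 7 turned: Havcr2 0.0089 for I3C against DMSO in Ahr-/- at 20 h, Tnfsf9 -0.024 for I3C against DMSO in Ahr-/- at 3 h, Cd86 -0.018 and Havcr2 -0.0055 for I3C against DMSO in Ahr+/+ at 3 h, Cd40 -0.00036 for the I3C response between genotypes at 3 h, Icosl 0.0016 for the genotypes at rest at 3 h, Cd83 -0.0044 for the hk S.E. response between genotypes at 3 h. With no filter on low counts, 5 turned: Cd83 -0.017 for the BaP response between genotypes at 3 h, Cd83 0.0084 and Havcr2 0.0023 for I3C against DMSO in Ahr-/- at 3 h, Cd40 -0.019 and Cd80 -0.0057 for the I3C response between genotypes at 3 h. With the replicate block, 3 turned: Tnfsf9 -0.00082 for I3C against DMSO in Ahr-/- at 20 h, Pdcd1lg2 0.021 for the I3C response between genotypes at 20 h, Cd83 -0.018 for the hk S.E. response between genotypes at 3 h. With RLE factors, 2 turned: Tnfsf9 -0.0090 for I3C against DMSO in Ahr-/- at 3 h, Cd80 -0.0066 for the hk S.E. response between genotypes at 20 h. With DESeq2, 2 turned: Tnfsf9 -0.0090 for I3C against DMSO in Ahr-/- at 3 h, Cd80 -0.0077 for the hk S.E. response between genotypes at 20 h. Leaving out each library in turn gave both signs for some members. For 20 h against 3 h in Ahr-/- at rest the range was Pdcd1lg2 -0.11 to 0.84. For 20 h against 3 h in Ahr+/+ at rest the range was Pdcd1lg2 -0.42 to 0.49. For BaP against DMSO in Ahr-/- at 20 h the range was Cd40 -0.086 to 0.16, Cd83 -0.22 to 0.15, Cd274 -0.15 to 0.043, Icosl -0.091 to 0.24, Tnfsf9 -0.082 to 0.013, Havcr2 -0.20 to 0.024. For BaP against DMSO in Ahr-/- at 3 h the range was Cd40 -0.044 to 0.074, Icosl -0.045 to 0.14, Tnfsf9 -0.029 to 0.26. For BaP against DMSO in Ahr+/+ at 20 h the range was Pdcd1lg2 -0.023 to 0.22, Havcr2 -0.039 to 0.22. For BaP against DMSO in Ahr+/+ at 3 h the range was Cd40 -0.0020 to 0.12, Cd86 -0.090 to 0.18, Cd83 -0.13 to 0.0090, Cd274 -0.0038 to 0.11, Icosl -0.097 to 0.027, Tnfsf9 -0.013 to 0.083, Havcr2 -0.12 to 0.033. For the BaP response between genotypes at 20 h the range was Cd80 -0.23 to 0.0063. For the BaP response between genotypes at 3 h the range was Cd40 -0.019 to 0.11, Cd80 -0.053 to 0.14, Cd83 -0.062 to 0.080, Icosl -0.18 to 0.0071, Tnfsf9 -0.23 to 0.059. For I3C against DMSO in Ahr-/- at 20 h the range was Cd40 -0.13 to 0.058, Cd83 -0.34 to 0.069, Cd274 -0.14 to 0.080, Pdcd1lg2 -0.30 to 0.15, Icosl -0.25 to 0.091, Tnfsf9 -0.047 to 0.056, Havcr2 -0.16 to 0.12. For I3C against DMSO in Ahr-/- at 3 h the range was Cd40 -0.014 to 0.097, Cd80 -0.11 to 0.0028, Cd83 -0.048 to 0.0081, Icosl -0.051 to 0.14, Tnfsf9 -0.16 to 0.13, Havcr2 -0.093 to 0.043. For I3C against DMSO in Ahr+/+ at 20 h the range was Cd40 -0.23 to 0.076, Cd86 -0.042 to 0.29, Pdcd1lg2 -0.23 to 0.042. For I3C against DMSO in Ahr+/+ at 3 h the range was Cd80 -0.12 to 0.022, Cd86 -0.093 to 0.14, Icosl -0.076 to 0.048, Havcr2 -0.089 to 0.10. For the I3C response between genotypes at 20 h the range was Cd40 -0.20 to 0.11, Cd80 -0.015 to 0.29, Pdcd1lg2 -0.22 to 0.26. For the I3C response between genotypes at 3 h the range was Cd40 -0.051 to 0.060, Cd80 -0.048 to 0.091, Cd83 -0.089 to 0.013, Icosl -0.14 to 0.035, Tnfsf9 -0.21 to 0.078, Havcr2 -0.063 to 0.13. For the genotypes after BaP at 20 h the range was Cd40 -0.19 to 0.077, Cd80 -0.021 to 0.12. For the genotypes after BaP at 3 h the range was Cd40 -0.072 to 0.047, Cd83 -0.031 to 0.11. For the genotypes after I3C at 20 h the range was Cd83 -0.14 to 0.27. For the genotypes after I3C at 3 h the range was Cd40 -0.0059 to 0.080. For the genotypes after DMSO and hk S.E. at 20 h the range was Cd80 -0.19 to 0.046, Havcr2 -0.17 to 0.038. For the genotypes after DMSO and hk S.E. at 3 h the range was Cd40 -0.0095 to 0.087, Cd83 -0.0092 to 0.085. For the genotypes at rest at 3 h the range was Cd83 -0.16 to 0.18, Cd274 -0.022 to 0.17, Pdcd1lg2 -0.20 to 0.93, Icosl -0.075 to 0.064. For hk S.E. in Ahr-/- at 3 h the range was Pdcd1lg2 -0.16 to 0.92. For hk S.E. in Ahr+/+ at 3 h the range was Pdcd1lg2 -1.72 to 0.13. For the hk S.E. response between genotypes at 20 h the range was Cd80 -0.068 to 0.17, Tnfsf9 -0.075 to 0.14, Havcr2 -0.12 to 0.087. For the hk S.E. response between genotypes at 3 h the range was Cd83 -0.13 to 0.21. Read depth limits Pdcd1lg2, with at most 46 reads in a library.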
